A study of Mus musculus with 16 samples.

Results

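H3K27Ac, the acetylation of histone H3 at lysine 27, was read in adult cardiomyocytes of Des+/+ mice, once in the basal state and once following swimming exercise. The comparison takes 2 of the 16 samples of the series, 1 library a side, and rests on the peak list deposited for each library. Both libraries came from 3-month-old Des+/+ animals, whose desmin gene is intact, so the heart has its muscle intermediate filament. The basal cells were taken from mice that did not swim, and the swim cells from mice that had undergone swimming exercise. The cells were isolated by enzymatic perfusion of the heart and harvested directly, and each library pooled chromatin of several mice. The length of the exercise, the time from the last swim to harvest and the time of day are not given in the sources used here. The labels give the antibody a catalogue number that rises by 1 from sample to sample, inputs included, while the study's methods give a single one. Des-/- libraries of the same age, basal and swim, serve below only as a second pair in which to read the same genes and regions. No spread between replicates could be measured, so all differences are descriptions of these libraries, without a test.

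Acetylation of lysine 27 marks nucleosomes at active promoters and enhancers, where it is laid down by the acetyltransferases p300 and CBP and removed by histone deacetylases. In heart muscle it is found over genes of the sarcomere, calcium handling and energy metabolism as well as over widely used housekeeping promoters. Exercise and physical stress are known to act on chromatin through signal-dependent factors, among them the immediate early proteins, the heat shock factors, the clock proteins and the steroid receptors. Glucocorticoid receptor dimers bind a palindrome of short half-sites, and clock proteins of the basic helix-loop-helix family bind the E-box.

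Stretches of 200 bases are shown for 5 regions that stood higher after swimming and 1 that stood lower. They are shown because the sites below on Fkbp5, Zbtb16, the clock genes and Ryr2 refer to them, and were read from GRCm38 on the plus strand. Capitals mark matches to GNACANNNTGTNC, a palindrome of the glucocorticoid-response type, in the first 5 and the E-box CACGTG in the last. The palindrome was chosen after the values were seen. The first stretch lies in an intron of Fkbp5 (chr17:28420228-28420427), a co-chaperone of steroid receptors. The next pair lies in a far intron of Zbtb16 (chr9:48723610-48723809 and chr9:48740175-48740374), a zinc finger transcription factor. The others lie within Per2 (chr1:91436385-91436584), a repressor of the clock, upstream of Ryr2 (chr13:12129171-12129370), the calcium release channel, and within Dbp (chr7:45707671-45707870), a clock output factor.
Fkbp5: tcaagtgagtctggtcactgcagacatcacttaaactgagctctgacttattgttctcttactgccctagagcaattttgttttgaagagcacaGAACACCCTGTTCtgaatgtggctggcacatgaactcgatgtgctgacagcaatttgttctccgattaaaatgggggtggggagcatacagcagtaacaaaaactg
Zbtb16, first: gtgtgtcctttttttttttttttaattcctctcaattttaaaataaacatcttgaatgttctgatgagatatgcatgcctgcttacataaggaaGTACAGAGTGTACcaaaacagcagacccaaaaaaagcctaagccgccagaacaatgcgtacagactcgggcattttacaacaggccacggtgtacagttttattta
Zbtb16, second: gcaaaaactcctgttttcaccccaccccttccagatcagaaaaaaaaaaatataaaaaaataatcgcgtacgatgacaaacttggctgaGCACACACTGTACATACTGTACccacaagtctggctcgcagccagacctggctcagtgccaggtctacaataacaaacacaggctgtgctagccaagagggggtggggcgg
Per2: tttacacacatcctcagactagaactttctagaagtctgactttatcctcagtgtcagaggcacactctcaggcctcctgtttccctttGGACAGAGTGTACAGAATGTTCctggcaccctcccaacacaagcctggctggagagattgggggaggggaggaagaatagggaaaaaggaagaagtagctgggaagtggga
Ryr2: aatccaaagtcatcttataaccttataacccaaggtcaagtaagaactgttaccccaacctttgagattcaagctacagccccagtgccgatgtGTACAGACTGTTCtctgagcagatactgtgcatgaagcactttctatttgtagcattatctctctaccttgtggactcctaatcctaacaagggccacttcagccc
Dbp: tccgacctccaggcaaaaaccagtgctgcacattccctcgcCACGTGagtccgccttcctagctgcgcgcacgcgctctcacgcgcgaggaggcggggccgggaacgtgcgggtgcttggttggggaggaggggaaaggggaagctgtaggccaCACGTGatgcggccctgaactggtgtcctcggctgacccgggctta
The second Zbtb16 stretch and the Per2 stretch each hold 2 matches that overlap in their shared bases. The regions of the Per2 and Ryr2 stretches had peak heights of 19 and 20 in the basal and 22 and 23 in the swim library. They are not the promoter regions of these genes given below. The Dbp stretch holds 2 separate E-boxes.

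The basal list held 15757 peaks over 17.2 Mb and the swim list 11157 peaks over 10.9 Mb. Peak heights, the deposited coverage signal in overlapping reads, ran from 15 to 185 in the basal list and from 15 to 140 in the swim list, with medians of 23 and 20. Mean input height was 2.96 and 3.06, and 26 basal and 24 swim peaks had an input height of 10 or more. Those peaks were left out of all values per gene and per region. Counting error alone gives a height of 15 reads a 95% range of 8.40 to 24.7 (exact Poisson), and a height of 30 one of 20.2 to 42.8. These intervals, and those of single genes, regions and shares below, cover counting error only. Intervals of list medians are order-statistic intervals over the genes of the list, and no interval here covers spread between animals or libraries. Of 20 cardiomyocyte markers, 18 had a peak in each library, among them Myh6, Tnnt2, Ryr2 and Actn2, and the atrial peptide gene Nppa had none. Endothelial genes also carried peaks, 28 of 31 in the basal and 25 of 31 in the swim library, with summed heights of 1108 and 684. Over all genes the summed heights were 323179 and 197607, a drop of similar proportion. Those of the cardiomyocyte markers were 520 and 437, a smaller drop. Of the endothelial genes, Vwf, Plvap and Lyve1 had no peak. Fibroblast and mural genes had peaks for 5 and 4 of 34, and leukocyte genes for 1 and 0 of 31, with Col1a1, Col3a1, Dcn and Ptprc at none. In such material fewer cells of a type and less acetylation per cell cannot be told apart.

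Most swim peaks lay where the basal library had a peak, and a larger share of the basal peaks was without a partner. Of the swim peaks, 8.39% (95% Wilson interval 7.89 to 8.92) overlapped no basal peak by 1 bp or more. Of the basal peaks, 39.0% (38.3 to 39.8) overlapped no swim peak. The lists differ in length, and with equal numbers of the highest peaks the shares were 16.9% and 23.9%. The share found again followed the height of the basal peak. It was 23.5% of the 3982 peaks of height 15 to 17, 60.6% of the 2748 of height 21 to 25, 94.1% of the 1981 of height 31 to 40, and 962 of 962 peaks of height 61 or more. Peaks without a partner had a median height of 18 in the basal list and 16 in the swim list, close to the floor of 15 that both lists share. Of the basal peaks that stood within 3 kb of a transcription start, 33.7% were not found again, against 52.6% in the rest of genes and 52.2% between genes. Among peaks of height 15 to 17 23.2% at starts, 24.2% in the rest of genes and 22.9% between genes were found again. At 18 to 20 the shares were 36.4%, 44.8% and 35.3%, the first pair with intervals that did not overlap, and at 41 to 60 they were 99.7%, 98.8% and 93.4%, as the plot of basal peaks by height shows.

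**Figure D1:**
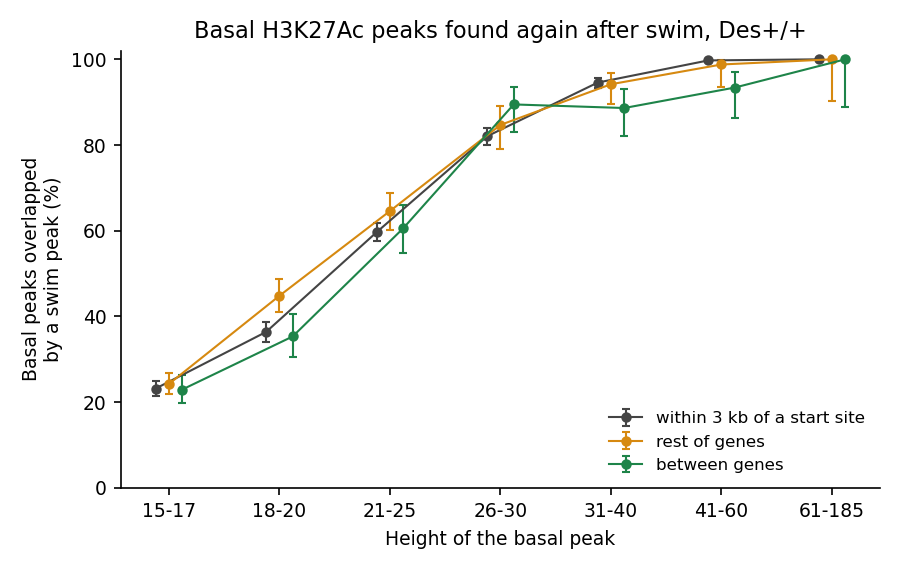
Percent of basal Des+/+ H3K27Ac peaks overlapped by a swim peak (vertical axis), by height of the basal peak in reads (horizontal axis), for peaks within 3 kb of a start site, in the rest of genes and between genes. Points are shares and bars are 95% Wilson intervals. Of the basal peaks of height 41 to 60, 99.4% were found again, against 23.5% of those at 15 to 17.

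Over genes, the highest swim peak stood at 0.714 of the highest basal peak. A gene's height is its highest peak with input under 10, each peak being assigned by the deposited annotation to the gene with the nearest start. A basal height was had by 9424 genes, a swim height by 7150 and both by 6832. Among the last, the median height was 34 in the basal and 24 in the swim library, and the ratio of swim to basal ran from 0.5 at the 5th to 1.06 at the 95th percentile. All values below are set relative to this median ratio of 0.714, so that a relative ratio of 1 is the typical gene. By this measure 290 genes stood at least 1.5-fold higher after swimming, 4.24% of those with both heights, and 211 at least 1.5-fold lower, 3.09%. At a fold of 2 there were 28 and 9. The exact counting interval of the relative ratio lay above 1 for 72 of the 290 and below 1 for 59 of the 211. Over all 6832 genes it lay above 1 for 72 and below 1 for 65. The intervals are not corrected for the number of genes or regions, nor for picking the extremes, so these counts are no measure of real change.

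Which genes could pass the fold was set in part by the floor. A gene below 31.5 in the basal list cannot be called lower, because its swim peak would fall under 15 and leave the list. Accordingly the higher genes had a median basal height of 20 and the lower genes one of 45. The median ratio was 1 for genes of basal height 15 to 19, of which 594 of 2033 kept a peak, 0.769 at 20 to 29, 0.676 at 30 to 39 and 0.655 at 40 to 59. Of the 290 higher genes, 138 had a basal height of 15 to 19 and 118 one of 20 to 29. The tall genes are therefore given apart below.

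**Figure D2:**
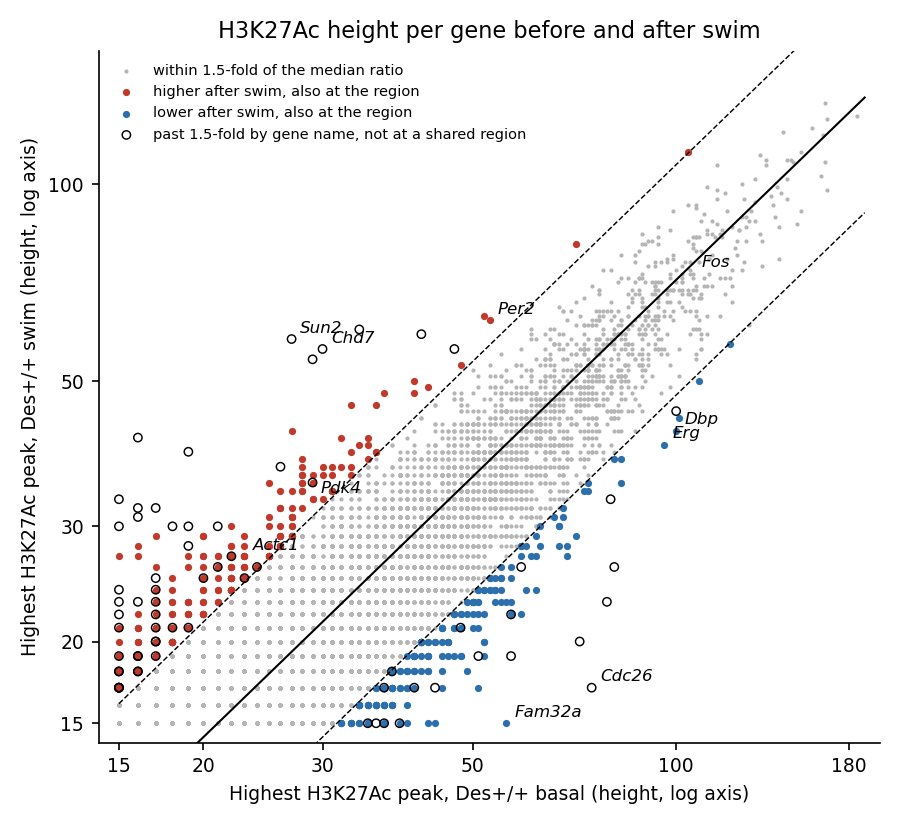
Highest H3K27Ac peak per gene in reads, Des+/+ basal (horizontal, log axis) against Des+/+ swim (vertical, log axis), for 6832 genes with a peak of input under 10 in both. The solid line is the median ratio of 0.714 and the dashed lines lie 1.5-fold above and below it. Red and blue points also passed 1.5-fold at the region of their highest peak, while open circles, such as Sun2, Cdc26 and Chd7, did so by gene name alone.

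Many of the largest changes by gene name did not hold at the region itself. At start sites shared by a pair of genes, the nearest start could differ between the lists, so the same acetylated region was given to one gene in the basal list and to its neighbour in the swim list. Of the 12 genes of height 30 or more with the highest relative ratios, none had a region measured in both lists that passed the fold. Gramd2b, from 16 to 41, had its tallest swim peak where the basal list had none. Errfi1 rose by name from 15 to 33, but its region read 55 and 33, the basal peak being assigned to 1700045H11Rik. Sun2, a nuclear envelope protein that links the lamina to the cytoskeleton, went from 27 to 58 by name, and its region from 74 to 58 under Gm16576. Dnajb4, Prcp, Naa60, Akt1s1, Ctcf, Gm11423 and Mir378a were of the same kind. Chd7, a chromatin remodeller, went from 30 to 56 by name, but a basal peak of 76 lay at the same place and had been left out for an input height of 10. Vim was of this kind too, with a basal peak of 34 and an input height of 11. Of the 12 lowest, Cdc26 went from 75 to 17 by name and its region from 75 to 41 under Prpf4. Mpc2, Uspl1, Mrpl58, Dclre1b and Gm11266 were alike, while Fam32a, Otub1, Prdm4, Glcci1, Wrap53 and 2900009J06Rik were lower at the region as well. Over all genes past the fold, 240 of 290 higher and 192 of 211 lower genes also passed at the region of their highest peak. The region missed the fold for 27 higher and 15 lower genes, every one in a region that carried more than 1 gene name. A further 21 higher genes had their highest swim peak where the basal library had none, and 3 lower genes the reverse. The other 2 higher genes, Chd7 and Vim, and the other lower gene had a peak there that the input limit left out.

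For this reason the changes were also read over merged regions, in which overlapping peaks of both lists are joined whatever their gene name. Of 16144 regions 9067 held a peak in both lists, and their median ratio was 0.740. Relative to it 479 regions, 5.28%, stood at least 1.5-fold higher and 351, 3.87%, at least 1.5-fold lower. Regions within 3 kb of a start had 255 of 7143 higher and 309 of 7143 lower, those in the rest of genes 162 and 24 of 1205, and those between genes 62 and 18 of 719. The classes differ in basal height, with medians of 33, 22 and 25. Between basal heights of 20 and 29 the higher regions made up 3.33% of 2254 at starts, 6.82% of 513 in the rest of genes and 4.93% of 304 between genes. Between 30 and 39 they made up 0.734%, 3.41% and 2.59%.

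The regions that stood highest after swimming were those of Zbtb16, Fkbp5, Cflar, Phyhd1, Tlr4 and Ryr2. They were ranked among regions of height 30 or more in either list, after the values were seen. Zbtb16 had 7 regions in both lists and all 7 passed the fold, with relative ratios from 1.54 to 2.32. The locus did not rise throughout, since 3 further basal peaks of Zbtb16, of heights 19, 16 and 19, had no swim partner, and 2 swim peaks, of heights 21 and 22, had no basal partner. In its far intron, about 110 kb into the gene, a region of chr9:48721813-48725121 went from 21 to 36, a relative ratio of 2.32 (exact interval 1.32 to 4.18). The intronic region of the second printed Zbtb16 stretch, chr9:48738305-48741101, went from 18 to 28. A further one, chr9:48733961-48738204, went from 37 to 48 and the promoter from 21 to 30. In the Des-/- pair the region of the first printed Zbtb16 stretch went from 38 to 33 and that at chr9:48733961-48738204 from 39 to 32. The promoter went there from 36 in the basal library to a peak of 25, whose input height of 10 kept it from use. The Des+/+ basal library was thus the lowest of the 4 at the region of the first printed Zbtb16 stretch and at the promoter.

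Fkbp5, whose protein holds steroid receptors in a form of low hormone affinity, went from 19 to 32 at the intronic region printed above. Its relative ratio there was 2.28 (1.25 to 4.25). The taller peak elsewhere in the gene went from 35 to 29, and from 33 to 37 in Des-/-. Fkbp5 had 3 peaks in the basal and 9 in the swim list, and 4 of the 9 overlapped no basal peak. At 1 of these, a start site with a swim height of 21, the Des-/- libraries had peaks of 24 in the basal and 29 in the swim list. Across those of swim heights 18 and 17 lay a Des-/- basal peak of 15, and at the former a Des-/- swim peak of 22. Only the one of swim height 15 had no Fkbp5 peak over it in either Des-/- list. The region that rose in Des+/+ read 19 and 18 in Des-/-. The plot of peaks over both genes shows these positions.

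**Figure D3:**
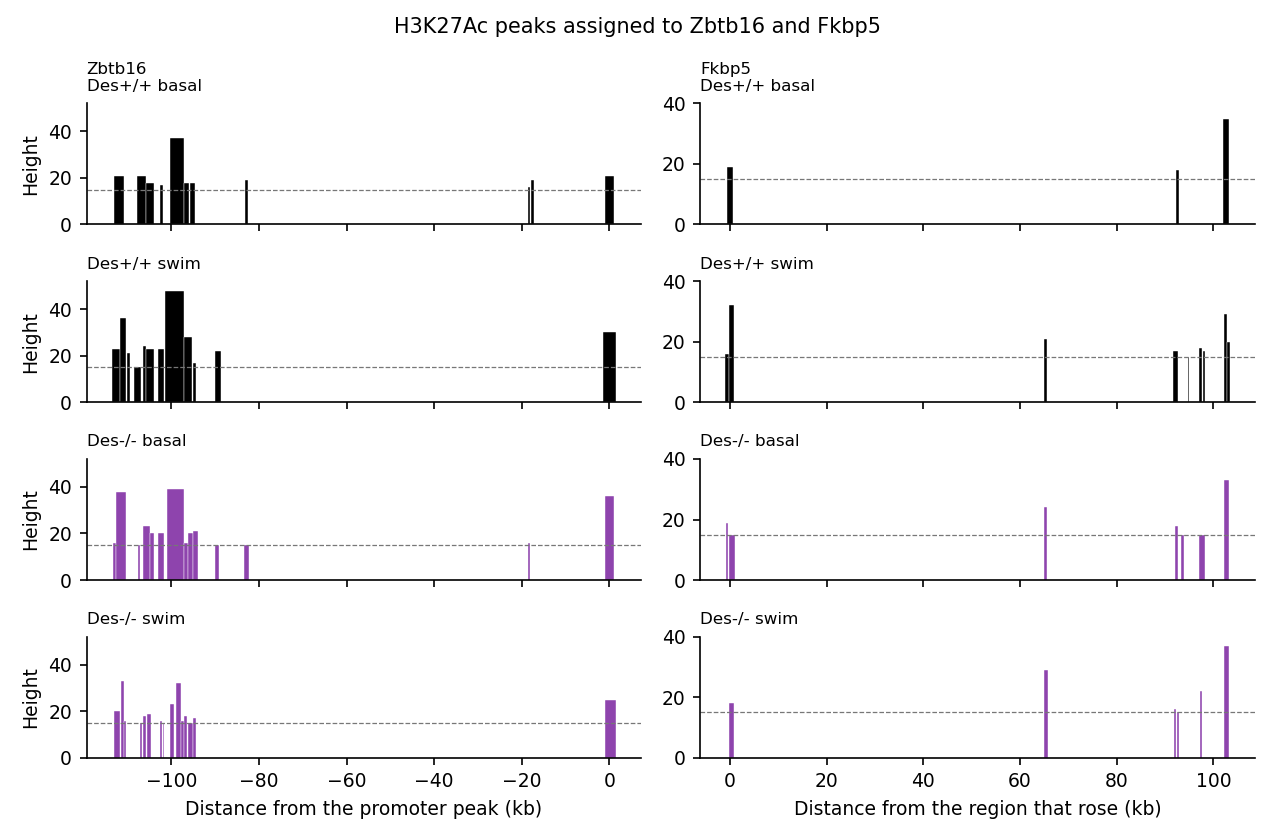
H3K27Ac peaks assigned to Zbtb16 (left) and Fkbp5 (right) in the Des+/+ and Des-/- libraries, basal and swim. Bars span each peak in kb from the Zbtb16 promoter peak or from the Fkbp5 region that rose, bar height is peak height in reads, and the dashed line is the floor of 15. In Zbtb16 the tallest Des+/+ peak was 37 in the basal and 48 in the swim library.

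Cflar, which encodes an inhibitor of caspase-8, went from 20 to 32 at an intronic region, with a relative ratio of 2.16 (1.20 to 3.99). Its promoter peak went from 84 to 59, the typical ratio. A region assigned to Phyhd1, a dioxygenase gene, went from 29 to 46 (2.14, 1.32 to 3.54). It lies upstream of the nearest Phyhd1 start and is annotated as an intron. The 3 regions assigned to Phyhd1 by nearest start all passed the fold. Of the others, one lies at the start and one, again upstream of it, is annotated as a 3' UTR. Whether the upstream regions belong to a neighbouring gene was not tested. Tlr4, the receptor for bacterial lipopolysaccharide, went from 27 to 42 at its promoter (2.10, 1.27 to 3.55). Ryr2, through which calcium leaves the sarcoplasmic reticulum, went from 22 to 32 at its promoter (1.97, 1.11 to 3.55). These 4 regions read 33 and 34, 42 and 45, 35 and 30, and 37 and 23 in the Des-/- basal and swim libraries, in the order named. At each of them the Des+/+ basal height was below the Des-/- basal height. Further down the order came Tacc2 (30 to 42), the heart kinase gene Alpk2 (25 to 35), Sptbn1 (25 to 34), which encodes a spectrin, Bcl2l1 (27 to 36), which encodes an inhibitor of apoptosis, and Samm50 (28 to 37), of the mitochondrial outer membrane. Among 1410 genes with 2 or more common regions under a single gene name, 32 had 2 or more past the fold upward and 5 downward. None of the 32 had a region that passed it the other way. That is set in part by the floor, as 0 regions of basal height 15 to 19 or 20 to 29 were called lower. The 32 included Sptbn1 with 4 of 7, Zmynd8 with 3 of 6, Synpo with 3 of 8 and Pdk4 and Per2 with 2 of 2 each.

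Of the 351 lower regions 309 lay within 3 kb of a start, as did 7143 of all 9067 common regions. At matched height such regions were called lower no more often than the rest. Between basal heights of 30 and 39, 6.30% of those at starts, 8.52% in the rest of genes and 7.76% between genes were lower, and between 40 and 59 it was 9.55%, 11.0% and 10.5%. Fam32a went from 56 to 15, a relative ratio of 0.362 (0.190 to 0.649). Myl6, the essential light chain of nonmuscle and smooth muscle myosin, went from 48 to 15 just upstream of its start (0.422, 0.220 to 0.767), while its taller neighbouring peak went from 66 to 40. Otub1, a deubiquitinase, went from 43 to 15. Dbp, the clock output factor whose E-boxes are printed above, went from 100 to 36 at its tallest region (0.486, 0.323 to 0.719). A second Dbp region, upstream of the start, went from 61 to 42, so the gene as a whole went from 100 to 42. Glcci1 went from 49 to 18, Ets1 from 42 to 16 and Rfk, riboflavin kinase, from 45 to 17. Vcl, which encodes the costamere protein vinculin, went from 50 to 19 at a region over the 3' end of a transcript. In the Des-/- pair Fam32a went from 55 to 27, Myl6 from 32 to 19 and Dbp from 81 to 54. Relative to the Des-/- median these were 0.667, 0.807 and 0.906, so none of the 3 passed the fold there, Fam32a lying at its edge.

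**Figure D4:**
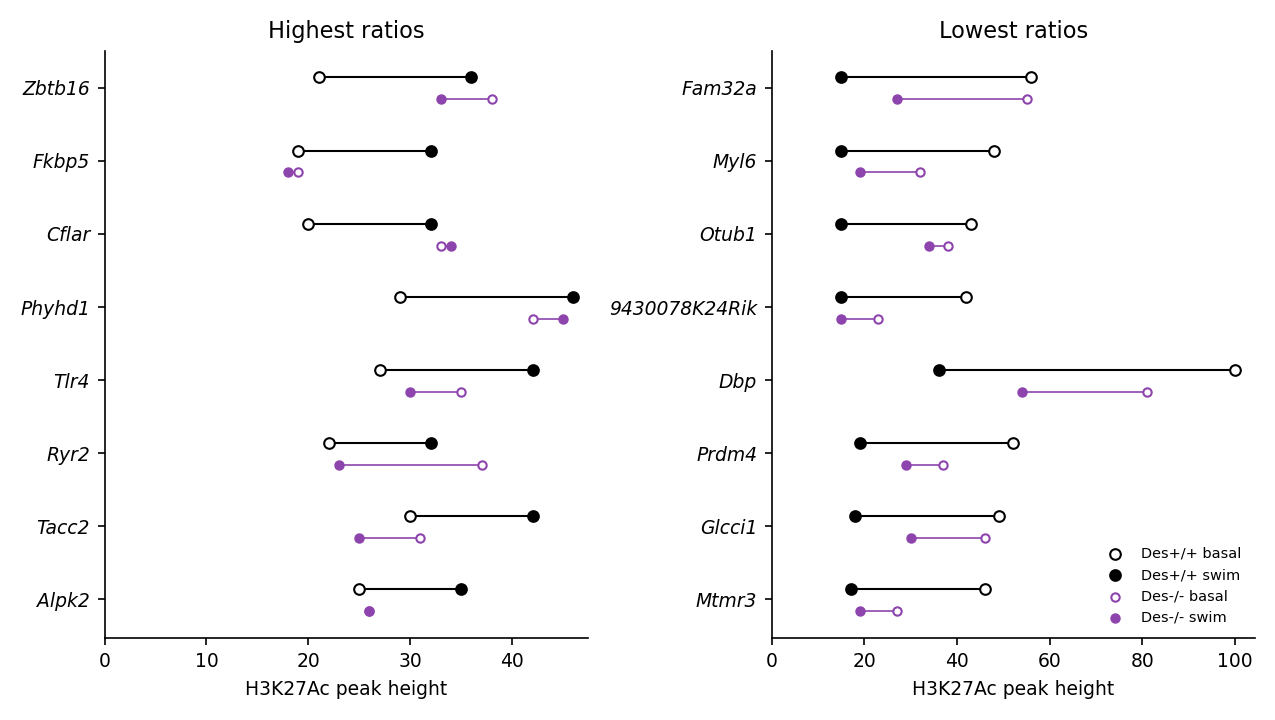
H3K27Ac height in reads (horizontal axes) at the 8 regions with the highest (left) and the lowest (right) swim to basal ratios in Des+/+, 1 region per gene, among those of height 30 or more in either Des+/+ list. Open and filled black circles are Des+/+ basal and swim, and purple circles are the Des-/- pair, the highest peak with its summit in the same region. Zbtb16 went from 21 to 36 and Fam32a from 56 to 15.

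Genes with tall basal peaks were least touched by the floor, and only a few of them rose. Of the genes with a swim peak, 1 of 569 of basal height 60 to 79 rose past the fold, and 1 of 395 of basal height 80 to 185. Myom1, which encodes the M-band protein myomesin, went from 104 to 112, a relative ratio of 1.51 (1.14 to 1.99), in a region also assigned to Myl12a. Set against the median ratio of regions, 0.740, it fell short of the fold, and 0 of 403 regions of basal height 80 to 185 passed it upward. Hapstr1 went from 71 to 81 (1.60, 1.15 to 2.23). Somewhat lower stood Per2, from 53 to 62 (1.64, 1.12 to 2.41), Cmpk1, from 52 to 63, Gvin2, from 48 to 53, and Plin4, a lipid droplet protein, from 43 to 49. Speg, a kinase of the junction between membrane and sarcoplasmic reticulum, went from 33 to 46 by gene name, but the tall swim peak lay elsewhere in the gene, in a region that went from 39 to 46 with a basal peak assigned to Gm15179. The Speg peak of 33 itself went to 27. Tall genes that were lower included Tcp11l2 (120 to 57), the deubiquitinase gene Usp19 (108 to 50), the endothelial factor gene Erg (96 to 40), Morf4l1 (83 to 35) and Fermt2 (81 to 38), whose protein acts on integrins. In the Des-/- pair Per2 went from 75 to 92, a relative ratio of 1.68, so it stood high after swimming in both genotypes, while Hapstr1 went from 90 to 55 and Erg from 65 to 57. Myom1 had Des-/- peaks of 129 and 103, but the latter had an input height of 11, and its highest Des-/- swim peak within the input limit was 19. These tall genes were picked for their height after the values were seen.

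Of 40 contraction genes 38 had a basal and 32 a swim peak, and those 32 had a median relative ratio of 1.13 (0.995 to 1.33), against 1 for all genes. Of the 32, 22 lay above 1, 5 passed the fold upward (the background is 4.24%) and 0 downward. The 5 were Actc1, cardiac actin, from 23 to 27 (relative ratio 1.64, 0.907 to 3.00), Tnnc1, troponin C, from 32 to 37, Ldb3 of the Z-disc from 30 to 33, Xirp1 from 25 to 27, and Myom1. The heights of the heavy chain gene Myh6 were 46 and 37, those of Myl2 37 and 24, and those of Mybpc3 29 and 15, the lowest ratio of the list at 0.724. With the swim heights matched to basal heights by rank, the list's median was 1.14. The 17 cardiomyocyte markers with both heights had a median of 1.2, and 13 lay above 1.

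Calcium handling and channel genes had a median of 1.05 over 20 genes, of which Ryr2 and Cacna1c, the L-type channel, passed the fold, beside 4.24% of all genes. Of the 4 Ryr2 regions in both lists 2 passed it, and the lowest had a relative ratio of 0.845. Phospholamban, Pln, went from 27 to 26 and the pump gene Atp2a2 from 66 to 57, with relative ratios of 1.35 and 1.21. Gja1, the gap junction protein connexin 43, was the lowest, from 62 to 30. Casq2 and Trdn had a swim peak of 16 each and no basal peak, while 6 genes of the list had a basal peak alone. Cardiac transcription factors had a median of 0.95 over 19 genes, and 0 passed the fold either way. Srf went from 77 to 40 and Nkx2-5 from 26 to 24.

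Of the lists of fuel use, that of fatty acid metabolism had the highest median, close to that of the metabolic regulators. The 30 genes of fatty acid metabolism with both heights had a median relative ratio of 1.18 (order-statistic interval over genes 1.1 to 1.24), and 24 lay above 1. Of these, Plin4 and Acacb passed the fold, beside 4.24% of all genes. Hadhb, of mitochondrial beta-oxidation, went from 67 to 59, Etfa from 48 to 46 and Lpl, lipoprotein lipase, from 35 to 34, while Slc25a20, the carnitine carrier, went from 35 to 18. Cpt2 had a basal peak of 37 and no swim peak. Of 28 genes of glucose use and energy buffering the median was 1.15 (0.993 to 1.23) and Pdk4, the kinase that holds pyruvate dehydrogenase inactive, passed the fold, from 29 to 33 (1.59, 0.938 to 2.72). Metabolic regulators had a median of 1.17 (0.974 to 1.33) over 20 genes, 1.07 with rank-matched heights, and 4 passed the fold, beside 4.24% of all genes. The median basal height of this list was 25.5, in the range that holds most of the higher calls. They were Lpin1, a phosphatidate phosphatase and coactivator, from 15 to 24 with its tallest swim peak where the basal list had none, the nuclear receptor gene Esrrg from 18 to 25, Sirt1, a deacetylase, from 25 to 31, and Pparg from 31 to 34. Ppargc1a, the coactivator of mitochondrial genes, read 18 and 15. Of 62 oxidative phosphorylation genes the median was 1.07 (0.98 to 1.14), and the 1 that passed the fold, Atp5pd, did so through a neighbour's region.

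Of 33 immediate early genes with both heights, which were among the tallest with a median basal height of 76, 0 passed the fold upward and 1 downward, Socs3 from 74 to 35. The median was 1.08. Fos went from 106 to 73, Egr1 from 93 to 62, Nr4a1 from 56 to 35, Jun from 85 to 45 and Atf3 from 36 to 38, with relative ratios of 0.964, 0.933, 0.875, 0.741 and 1.48. Heat shock genes had a median of 1 over 30 genes, and the single one past the fold, Dnajb4, was not past it at its region. Hspa1b went from 65 to 34, and Hspa1a had no basal and a swim peak of 15, in a region that read 47 and 36 with the peaks of Hspa1l. Of 14 hypertrophy and stress genes the median was 1.18, and Hmox1, Xirp1 and Rcan1 passed the fold upward, all with basal heights of 25 or less, beside 4.24% of all genes. By region 1 gene of the list, Sesn1, was lower, from 36 to 16. Nppb, the B-type natriuretic peptide gene, went from 45 to 28, Ankrd1 from 21 to 20 and Myh7 from 18 to 17. Nppa and Acta1 had no peak in either list.

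Among 19 clock genes the median was 0.994, with Per2 and Nfil3 past the fold upward and Dbp past it downward. These are few genes beside the backgrounds of 4.24% and 3.09%, and nothing is read from their number. Per1 went from 100 to 71, the typical ratio. Of 59 cytosolic ribosome genes, which serve here as housekeeping promoters, the median was 1.03, 1 passed the fold upward (Rps18) and 2 downward (Rpl13a and Rps3a1). Genes of proteolysis and atrophy had a median of 1.06 over 31, with Irs1, an adaptor of insulin signalling, from 22 to 26 and Akt1 from 53 to 25 past the fold. Notch and Hippo genes had a median of 0.943 over 29. Notch1 went from 43 to 22 (0.716, 0.408 to 1.22) and Notch3 from 37 to 17. Of the 31 genes of the desmin network the median was 1.1, but 1 with rank-matched heights. Des itself went from 30 to 24. Past the fold stood Banf1 and Tln2 upward, Vcl downward, and Sun2 and Vim, both discussed above, beside 4.24% and 3.09% of all genes. Endothelial genes had a median of 0.966 over 25 and 1 gene past the fold each way, Cldn5 from 20 to 24 and Erg.

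**Figure D5:**
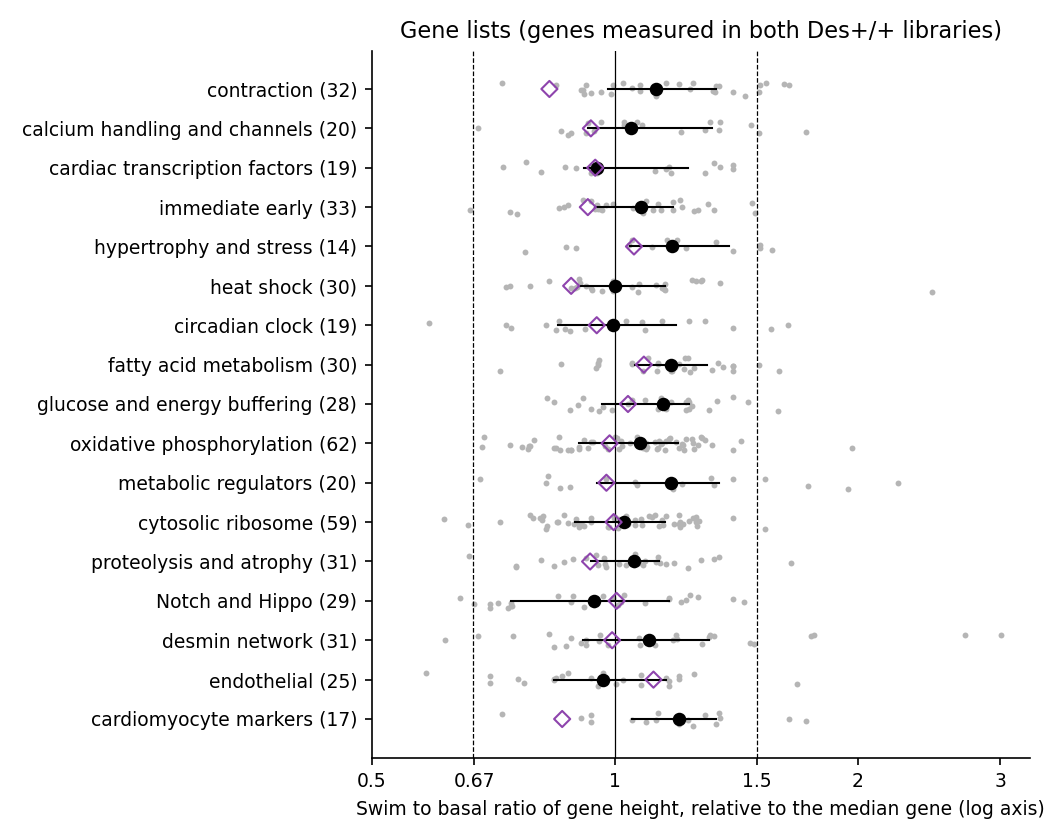
Swim to basal ratio of gene height relative to the median gene (horizontal, log axis) for 17 gene lists, with the number of genes measured in both Des+/+ libraries in brackets. Grey points are genes, black circles are medians with bars for the quartiles, purple diamonds are the medians in the Des-/- pair, and dashed lines mark 1.5-fold. The contraction list has its median at 1.13 in Des+/+ and 0.830 in Des-/-.

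Peaks found only after swimming were many but low. There were 929 swim-only peaks with input under 10, assigned to 759 genes, 10.6% of the genes with a swim peak. Of the peaks, 77.7% had a height of 15 to 17, and only 3 reached 30. By place, 37.4% lay within 3 kb of a start, 42.6% in the rest of genes and the remainder between genes. The 3 tallest, nearest to Gramd2b (41), A930001A20Rik (33) and Fam50b (30), all lay between genes, outside the 3 kb around any start. The first and second were narrow, with no Des-/- peak over them, and the third overlapped Des-/- peaks of 25 and 22. Next stood an intronic peak of Socs6 (26), a feedback inhibitor of cytokine signalling. At 25 stood a promoter peak of Syn2, intronic peaks of Mthfd1l and Commd10, and 2 neighbouring peaks about 60 kb from the start of Sik1. A peak assigned to Mdm1, also of 25, is annotated as an intron but lies upstream of the nearest Mdm1 start. Sik1 encodes a salt-inducible kinase that responds to cyclic AMP. Its tallest peak, at 82 and 71, had a relative ratio of 1.21.

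Several swim-only peaks were assigned to each of some genes. Clic5 and Rbpms had 6 each, and Myoz2, a Z-disc binder of calcineurin, had 5 besides a peak that went from 41 to 39. The basal list held 10, 13 and 1 peaks for these genes. None of the swim-only peaks of these 3 genes was above 19. Of the genes with a swim-only peak 582 also had a basal peak, and 177 had none.

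Of the 318 genes with a swim and no basal peak, 145 had their highest peak over a basal peak under another name. This held for all of the 10 tallest, among them Pfdn4 (75), Dcaf6 (54), Mm2pr (54), Marchf5 (48) and Prpf4 (41). The reverse list, 2586 genes with a basal peak and no swim peak of any input height, had a median height of 19, and 99 lay over a swim peak under another name. Again the 10 tallest were all of this kind, from Gm16796 (93) and Gart (78) to Brca1 (71), Myl4 (55) and Cbx5 (53). For Gart, an enzyme of purine synthesis, the region went from 78 to 34 under the name of Son, a relative ratio of 0.610. At the other 9 the region ratio lay between 0.792 and 1.30 of the median.

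The Des-/- libraries gave a second reading of the same regions. They are separate libraries, but the Des-/- swim library had a mean input height of 5.48 and 9.29% of its peaks at an input height of 10 or more, so fewer regions could be read. Of the 479 regions higher in Des+/+, 249 held the summit of a usable peak in both Des-/- lists. Their median heights were 19 and 25 in Des+/+ basal and swim, and 25 and 20 in Des-/- basal and swim. The Des-/- relative ratio had a median of 1.14 there, and 28 passed the fold upward and 4 downward, which is 11.2% and 1.61%. Over all 6073 regions read in the 4 libraries, 4.78% passed it upward and 3.79% downward. These shares are not matched for height. The 249 regions had a Des-/- basal median of 25, against 36 over all 6073. In Des+/+, 125 of 3071 regions of basal height 20 to 29 passed upward, but 21 of 1926 at 30 to 39. Whether the Des-/- pair repeats the rise can therefore not be read from these shares. Of the 351 lower regions, 277 could be read, with medians of 43 and 20 in Des+/+ and 41 and 29 in Des-/-. Their Des-/- median was 0.932, with 6 upward and 16 downward. By gene, 185 of the 290 higher genes were read in Des-/-, 18 passed upward and 7 downward, beside backgrounds of 4.70% and 5.40% among all Des-/- genes. Those backgrounds are not matched for height either. Of 176 of the lower genes, 4 passed upward and 15 downward. Of the 929 swim-only peaks 45.9% (42.7 to 49.1) overlapped a Des-/- basal peak, and 4.84% (3.64 to 6.42) overlapped a Des-/- swim peak and no Des-/- basal peak.

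In windows of 300 bases around the summits, the median GC content was 53.0% in the higher, 62.3% in all common and 66.0% in the lower regions. These pooled values go with region class and basal height, since 162 of the higher but 24 of the lower regions lay in the rest of genes. Promoters alone gave 59.3% in the higher, 65.7% in all and 67.3% in the lower regions, and promoters of basal height 30 to 59 gave 66.0% over 16 higher, 67.7% over all and 67.3% over lower regions. In the rest of genes the medians were 50%, 50% and 49.5%. The GC box GGGCGG, searched on both strands as all motifs here, was in 20.7% of the higher, 45.0% of all and 53.0% of the lower windows. In promoters of basal height 30 to 59 that order was gone, with 9 of 16 higher, 58.8% of all and 55.6% of the lower windows. The GATA motif AGATAA was in 10.0%, 5.97% and 2.85% of the pooled windows, but in the rest of genes in 13.6% of 162 higher, 12.6% of all and 5 of 24 lower windows. The AP-1 type motif TGANTCA was in 7.93%, 4.85% and 4.27% of the pooled windows, and in the rest of genes in 11.7% of the higher, 8.05% of all and 3 of 24 lower windows. Set within class and height, the windows thus gave no order that held throughout. The part of base composition in the height ratios was not tested.

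Over whole regions, the palindrome GNACANNNTGTNC had 27 matches in 23 of 479 higher regions, 4 in 4 of 351 lower and 257 in 247 of all 9067. That is 0.0423, 0.00805 and 0.0192 matches per kb, with median region lengths of 1179, 1231 and 1269 bases. In the summit windows of 300 bases it was in 0.626%, 0.570% and 0.441%, so the matches lay mostly away from the summits. Per kb it came to 0.0384 in the higher and 0.0156 in all promoter regions, 0.0522 and 0.0330 in the rest of genes, and 0.0261 and 0.0320 between genes, where the order was the other way round. The 23 regions included 3 of Zbtb16 and those of Fkbp5, Alpk2, Bcl2l1, Irs1, Per2, Plin4, Ryr2 and Fth1. Higher regions in the rest of genes held 13 matches, of which the 3 Zbtb16 regions held 1, 2 and 2. The Fkbp5 region counts among those within 3 kb of a start. The values of Fkbp5 and Zbtb16 were seen before the palindrome was chosen. The higher densities at promoters and in the rest of genes are therefore no support for it. Nor were the sets matched for basal height or base composition, and overlapping matches were counted separately. The E-box CACGTG was in 91 of 479 higher, 77 of 351 lower and 2087 of all 9067 whole regions.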

How the data were processed

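ChIP-seq libraries for H3K27Ac were made by the authors from adult cardiomyocytes, with an input library for each. Per the labels, single-end reads were aligned to GRCm38 (mm10) with Bowtie2 2.4.4 at default settings, sorted with SAMtools 1.13 and turned into peaks with scripts of the authors' laboratory. Peaks were annotated with ChIPseeker 1.36.0. The reads kept in each library, duplicate removal and any depth scaling are not given in the sources used here. The deposited height and input height are coverage signal in whole reads, with a floor of 15. The deposited p-value was not used beyond the authors' own threshold, and the deposited fold is the ratio of height plus 1 to input height plus 1. The deposited score column of distance to the nearest start, in bp, placed peaks.

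From the lists, overlaps of 1 bp, heights per gene (input under 10), merged regions, exact binomial and Wilson intervals, and motif counts were computed with Python 3.11.15, pandas 2.3.3, scipy 1.17.1 and pysam 0.24.0, and tested on simulated data. Rank matching divides each gene's swim height by the swim height that holds the rank of its basal height. Relative ratios divide by the median ratio. Des-/- heights at a region are of peaks with their summit in it. Other overlap rules, height and input limits, scalings and folds were tried. Members, lists and motifs were chosen with earlier results of these data known. Named genes were the 12 highest and lowest ratios (height 30 or more), the 10 tallest genes of 1 list alone each way, the genes of the 10 tallest swim-only peaks, the extremes of each list, and 20 fixed genes. Promoter sequences of RefSeq (GRCm38.p6) matched 177 of 240 higher and 151 of 192 lower genes, under 80%, so that motif check is void. Some genes are not reported here.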

Additional observations from a re-analysis of the deposited data

Results flagged for a closer look

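These results differed between the genotypes, with a change above the fold in one pair and below it in the other, or, for a list, medians at least 1.1-fold from 1 on opposite sides. None of the differences was tested, since each genotype has 1 library per condition. Contraction genes had a median relative ratio of 1.13 in Des+/+ and 0.83 in Des-/-, the latter over 21 genes and 0.887 over 23 genes without the input limit. The cardiomyocyte markers had medians of 1.2 and 0.86. Mean input height in the Des-/- swim library was 5.48, against 3.06 in the Des+/+ swim library, and its part in these medians was not tested.

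Mir378a stood at 2.8 in Des+/+ and 0.654 in Des-/-, in a region shared with Ppargc1b whose Des+/+ relative ratio was 1.32. Myom1 stood at 1.51 and 0.201, where the Des-/- swim peak of 103 had been left out for an input height of 11. Chd7 stood at 2.61 and 0.434. Its tallest basal peak in Des+/+ (76) and its tallest swim peak in Des-/- (53) were left out for input heights of 10 and 14, and over that region the pairs read 76 and 56, and 85 and 53. Cdc26 stood at 0.317 and 2.79, and Dclre1b at 0.467 and 2.79. Both lie at start sites shared with a neighbour, and their Des+/+ regions stood at 0.765 and 0.835.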

How the results depend on the processing

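The share of swim peaks without a basal partner (8.39%) became 9.15% when an overlap of at least 50% of the smaller peak was asked for, 4.89% and 2.55% at heights of 20 and 30 or more in both lists, and 16.9% with equal numbers of the highest peaks. The share of basal peaks without a swim partner (39.0%) became 40%, 43.9%, 53.4% and 23.9%. The median ratio of 0.714 became 0.709 from promoter peaks alone, 0.690 with input subtracted and 0.667 among genes of height 30 or more. Genes higher and lower numbered 477 and 403 with input subtracted, 133 and 98 among genes of height 30 or more, and 28 and 9 at a fold of 2. Rank-matched heights left 170 higher genes and 155 lower. Of the genes with a swim-only peak, 321 had one at a promoter, 65 one of height 20 or more, and 3 one of height 30 or more, the last limit being chosen after the data were seen. Read at the region of the highest peak, also an added choice, 8 named genes changed sides of 1: Errfi1 (0.840), Prcp (0.941), Gm11423 (0.974), Naa60 (0.786), Ctcf (0.909), Mpc2 (1.05), Mrpl58 (1.02) and Gm11266 (1.04), because a neighbour's peak was then counted. None of the 17 list medians moved outside its interval over genes under rank matching, promoter peaks alone, no input limit or the region reading. No paired analysis was possible because each group has a single library. Heights near the floor limit the low genes: of 2033 genes of basal height 15 to 19, 594 have a swim peak to compare.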

Other observations

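A list of 32 genes known to be induced by glucocorticoids was put together after the heights of Fkbp5 and Zbtb16 had been seen, so its values are a description and no support for a direction. Of these, 31 had heights in both Des+/+ libraries, with a median relative ratio of 1.13, or 1.17 with rank-matched heights. Above 1 lay 24 of 31, and 6 passed the fold upward and 0 downward, beside 4.24% and 3.09% of all genes. Read at the region of the highest peak, 4 passed upward and 1, Sesn1, downward. The 6 were Zbtb16, Pdk4, Lpin1, Mertk, Tsc22d3, which went from 22 to 27 and encodes the leucine zipper GILZ, and Errfi1, whose region did not pass. Per1 read 100 and 71, and Glul, glutamine synthetase, had the lowest relative ratio of the list at 0.677. Swim-only peaks were assigned to 16 of the 32 genes, beside 10.6% of all genes with a swim peak. These shares are not matched for the number of peaks per gene, and the 32 genes held 115 swim peaks. In the Des-/- pair the median was 1.09 over 28 genes, with 4 upward and 2 downward, beside 4.70% and 5.40% of all Des-/- genes.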
